A study of Mus musculus with 6 samples.

Results

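Interferon-stimulated genes, the genes a cell switches on when it senses an interferon, were followed in hematopoietic stem cells (HSCs) of mouse bone marrow, which renew the blood. The gene set is a curated list of 34 symbols, matched by name, and 33 of them were found among the 19978 genes of the expression table. Isg15 was not analysed here. Of the 6 libraries, 3 are labelled as a conditional knockout (cKO) of Piezo1, the gene of an ion channel opened by mechanical force, and 3 as wild type (WT), each made from 100 sorted cells by a low-input full-length method (Smart-seq2). Neither group was given a treatment in the labels, and the sources used here name no Cre driver, deleted exons, age or sex of the mice. The labels do not say whether libraries of the same genotype came from separate mice, so every p-value measures only the spread between these libraries, which may be technical.

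Interferons are secreted proteins that warn cells of infection. Type I interferons bind the IFNAR receptor, whose JAK kinases activate STAT2 and other factors. STAT2 joins IRF9 in the complex ISGF3, which binds interferon-stimulated response elements (ISREs) in the promoters of antiviral genes. Interferon gamma acts mainly at another element, the gamma-activated site (GAS). In HSCs, interferons are known to drive resting cells into cycle, and stem cells are known to keep some antiviral genes, among them members of the Ifitm family, on without an external signal.

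The promoters of several of these genes are shown because they carry the element through which the genes are known to be induced together. RefSeq promoter windows on GRCm38.p6, which run from 250 bases before to 50 bases after a start site, were on hand for 24 of the 33 genes. The ISRE core, searched as GAAANNGAAA on either strand, was present in 14 of these 24 genes (58.3%) and in 1079 of all 27025 genes with a window (3.99%). The GAS core, searched as TTCNNNGAA, was present in 6 of the 24 genes (25.0%) and in 9.55% of all genes. Matches to the 2 motifs were counted separately and could overlap. Such a match is a string of letters, not a measured binding site. The stretches below lie upstream of a RefSeq start site, on the strand of the gene. The GAAA or TTTC blocks of each ISRE core are in capitals. In Gbp2 the core lies inside the gene as deposited, which starts at 142620602. Ifit1 (chr19:34640755-34640843, plus strand) and its neighbour Ifit3 (chr19:34583343-34583446, plus strand) held 2 matches each. Oas1a (chr5:120907526-120907575, minus strand) and Bst2 (chr8:71537557-71537632, minus strand) also held 2 each, which share a GAAA block. Gbp2 (chr3:142620574-142620643, plus strand) and Rsad2 (chr12:26456533-26456602, minus strand) held 1 each.
Ifit1: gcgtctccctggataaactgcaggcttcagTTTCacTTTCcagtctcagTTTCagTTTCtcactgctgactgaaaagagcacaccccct
Ifit3: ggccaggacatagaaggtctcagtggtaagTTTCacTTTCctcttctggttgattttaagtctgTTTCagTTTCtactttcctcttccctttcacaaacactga
Oas1a: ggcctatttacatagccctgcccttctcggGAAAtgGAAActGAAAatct
Bst2: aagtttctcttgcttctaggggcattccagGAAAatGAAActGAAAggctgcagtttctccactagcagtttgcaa
Gbp2: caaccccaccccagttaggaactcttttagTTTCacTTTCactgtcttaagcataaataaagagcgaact
Rsad2: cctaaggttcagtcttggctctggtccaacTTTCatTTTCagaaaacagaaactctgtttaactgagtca

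Before the genes themselves, 3 properties of the libraries bear on every value. Total counts were 31252820, 72116120 and 69972499 in labelled cKO 1, 2 and 3, against 18035239, 64794532 and 3907259 in WT 1, 2 and 3. Piezo1 did not separate the labelled genotypes and was highest in labelled cKO 2. Its level was 0.175, 8.81 and 0.819 FPKM (fragments scaled to transcript length and library depth) in the labelled cKO libraries and 0.539, 3.97 and 1.57 FPKM in WT. On the log2 scale it differed by 1.20 (standard error 2.21, edgeR adjusted p = 0.843), so the genotypes are given as labelled and all directions depend on the labels. Markers of HSCs were low in WT 1 and WT 3: of 13 marker genes, 6, 7 and 7 reached 1 FPKM in the labelled cKO libraries, against 2, 10 and 3 in WT 1, 2 and 3. Summed over those markers, levels ranged from 377 to 460 FPKM in the labelled cKO libraries and from 44.2 to 610 FPKM in WT, where Ly6a alone gave 601 FPKM in WT 1.

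The interferon-stimulated genes were detected most broadly in WT 2 and in the library labelled cKO 2. A level of at least 1 FPKM was reached by 9, 18 and 12 of the 33 genes in labelled cKO 1, 2 and 3, and by 6, 19 and 13 in WT 1, 2 and 3. The ranges of the labelled genotypes overlapped. At 10 FPKM the numbers were 4, 11 and 9 in the labelled cKO libraries against 2, 14 and 3 in WT. The 13 genes at 1 FPKM in WT 3 rested on little sequence, since 2 of the 33 had at least 100 counts there. Over all 19978 genes, 8.87%, 14.5% and 15.1% reached 10 FPKM in the labelled cKO libraries and 5.04%, 16.5% and 4.34% in WT. WT 2 and labelled cKO 2 and 3 led in both counts, but the order within them and between WT 1 and WT 3 differed. The mean of log2(FPKM + 1) over the 33 genes was 1.35, 2.49 and 2.07 in the labelled cKO libraries against 1.01, 2.78 and 1.08 in WT. It was lowest in WT 1 and WT 3, the libraries with the lowest totals and the fewest HSC markers, and the part of either in the levels was not tested. In bulk samples of this kind, fewer cells of a type and less RNA per cell cannot be told apart.

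**Figure D1:**
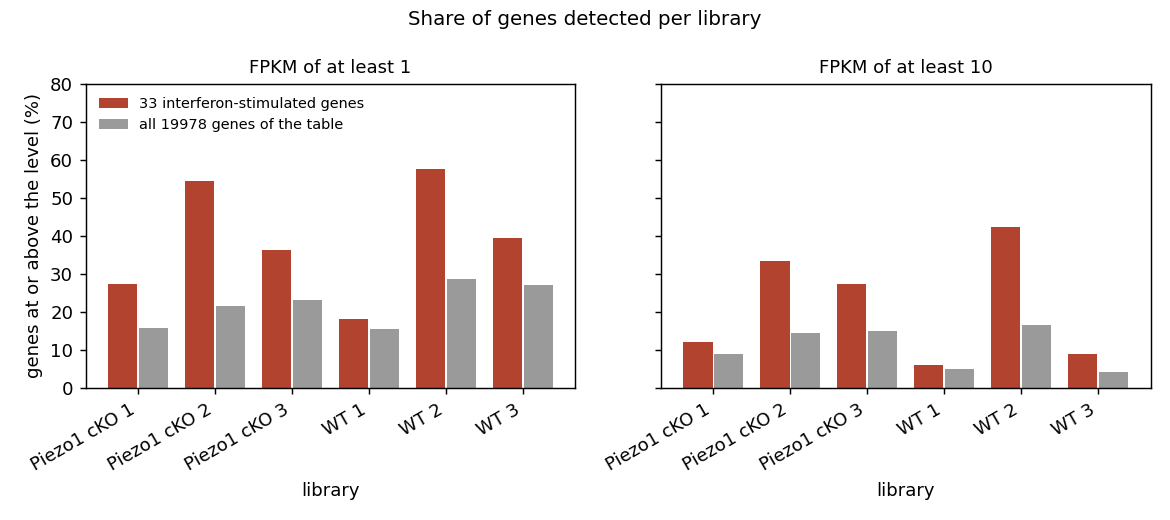
Percentage of the 33 interferon-stimulated genes (red) and of all 19978 genes of the table (grey) at or above 1 FPKM (left) and 10 FPKM (right) in each library, with the labelled Piezo1 cKO libraries left of WT. The red bars are tallest in WT 2, at 57.6% and 42.4%, and next in labelled cKO 2, at 54.5% and 33.3%.

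Which of these genes reached 10 FPKM differed between libraries, though the 3 in WT 3 (Bst2, Ifi27l2a and Ifitm1) were all among those of WT 2. Of the 21 genes that reached 10 FPKM in any library, 15 (71.4%) did so in only 1 or 2 of the 6 libraries, close to the 70.9% found among all 6221 genes that reached that level. All 21 had a highest level more than 100-fold above their lowest, or were listed at 0 somewhere, as did 82.8% of the 6221. WT 2 held the highest level of 9 of the 21, labelled cKO 2 and labelled cKO 3 of 4 each, labelled cKO 1 of 3, WT 1 of 1 and WT 3 of 0. Labelled cKO 2 and WT 2 shared 6 genes at 10 FPKM (Ifi203, Ifi27l2a, Ifit2, Ifitm1, Ifitm3 and Rsad2), which is 54.5% of the 11 in labelled cKO 2 and 42.9% of the 14 in WT 2. For all genes those shares were 59.9% and 52.5%. Labelled cKO 2 and labelled cKO 3 also shared 6, which are Gbp2, Ifi203, Ifi47, Ifitm1, Ifitm3 and Isg20. That is 54.5% of the 11 in labelled cKO 2 and 66.7% of the 9 in labelled cKO 3, where the shares for all genes were 55.5% and 53.5%.

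**Figure D2:**
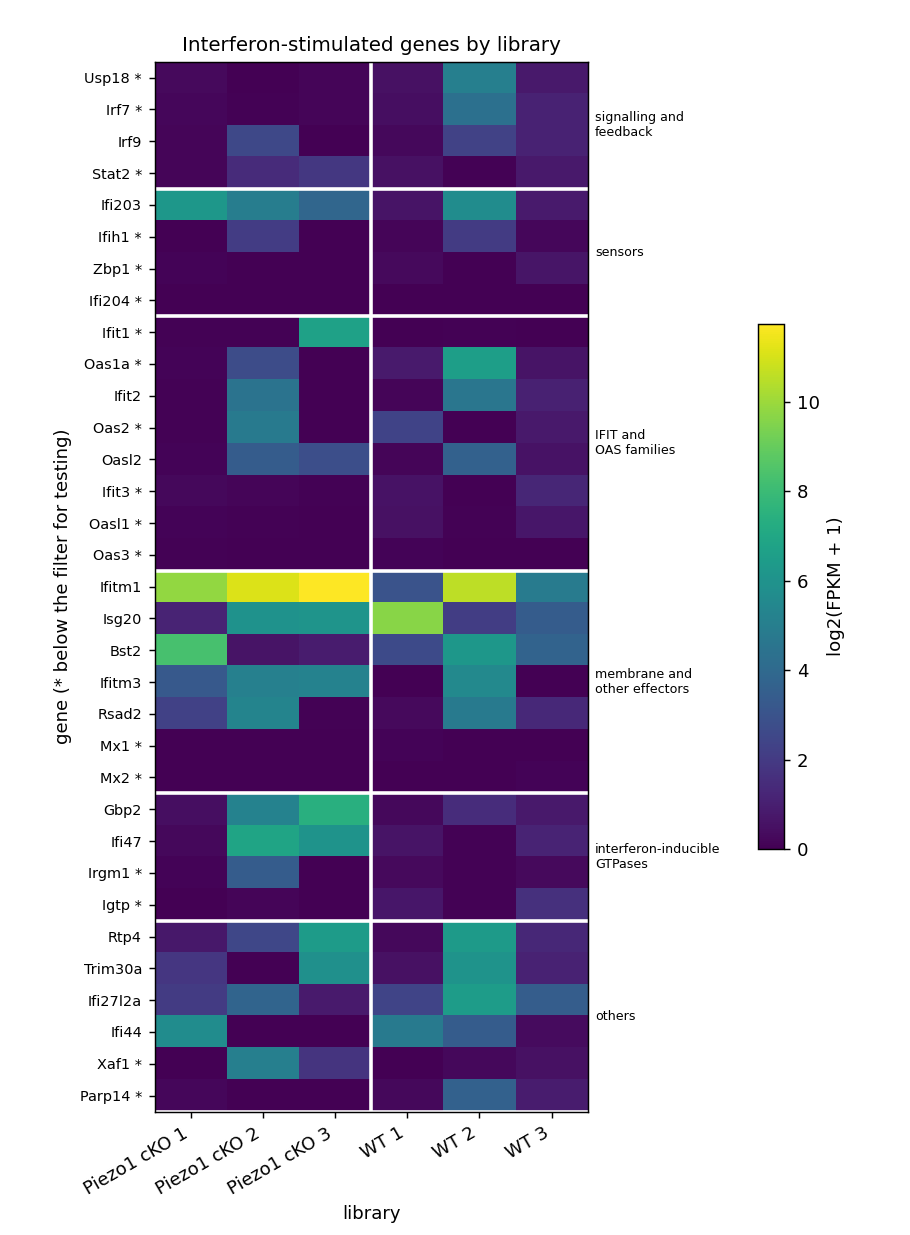
Level of each of the 33 genes, as log2(FPKM + 1) by colour, in the 3 labelled Piezo1 cKO libraries (left) and the 3 WT libraries (right), with genes grouped by role. Ifitm1 is bright in 4 libraries, most other bright cells stand alone or in pairs along a row, and asterisks mark the 18 genes below the filter for testing.

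Genes that carry the interferon signal were at low levels except in WT 2 and, for some, labelled cKO 2 or 3. Irf7, the transcription factor that amplifies type I interferon production, had 0.160, 0.0560 and 0.118 FPKM in labelled cKO 1, 2 and 3, against 0.334, 19.3 and 1.15 FPKM in WT 1, 2 and 3. Usp18, a protease that removes ISG15 from proteins and restrains the receptor, had 0.235, 0 and 0.114 FPKM in the labelled cKO libraries and 0.436, 32.6 and 0.732 FPKM in WT. Both stood far above their other libraries in WT 2, with 5267 counts for Irf7 and 6588 for Usp18, and at 37 counts or fewer elsewhere. Phrf1, which overlaps Irf7 on the other strand, had 3546 counts in WT 2. It had 22684 in WT 1 and 6209 in labelled cKO 2, where Irf7 had 29 and 19. How far the pair shared reads in WT 2 was not tested. Irf9, the DNA-binding part of ISGF3, had 0.101, 4.81 and 0.0168 FPKM in the labelled cKO libraries against 0.194, 3.98 and 1.17 FPKM in WT. Stat2 was highest in labelled cKO 3, at 2.78 FPKM, with 0.110 and 1.71 FPKM in labelled cKO 1 and 2 and 0.460, 0.0417 and 0.722 FPKM in WT. WT 2, where Irf7 and Usp18 were highest, thus had the lowest level of Stat2 in the series.

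Among the sensors, Ifi203 was the abundant one. This gene of the PYHIN family, whose proteins bind nucleic acids, had 72.2, 30.9 and 13.6 FPKM in the labelled cKO libraries and 0.522, 51.7 and 0.778 FPKM in WT. It was high in 4 libraries and low in WT 1 and WT 3. The overlapping same-strand gene Mndal had 21416, 28323 and 11598 counts in the labelled cKO libraries against 23949, 16143 and 46 in WT. In WT 1, Ifi203 had 77 counts beside the 23949 of Mndal. The division of reads between these related genes in the other libraries was not tested. Ifih1, which encodes the double-stranded RNA sensor MDA5, reached 3.31 FPKM in labelled cKO 2 and 3.07 FPKM in WT 2 and at most 0.168 FPKM elsewhere. Zbp1, a sensor of Z-form nucleic acids, stayed at or below 0.579 FPKM and Ifi204 at or below 0.0136 FPKM in all 6 libraries.

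The IFIT genes, whose proteins bind foreign RNA, lie side by side on chromosome 19 and were on in different libraries. Ifit1 (34640871 to 34650009) had 0.0378, 0.0534 and 105 FPKM in labelled cKO 1, 2 and 3, against 0, 0.0578 and 0 FPKM in WT. Its 21737 counts in labelled cKO 3 stand beside 12 or fewer in every other library. Ifit2 (34550694 to 34576419) had 0.0513, 20.9 and 0 FPKM in the labelled cKO libraries and 0.134, 23.3 and 1.13 FPKM in WT. It was therefore high in labelled cKO 2 and WT 2 and listed at 0 in the library where Ifit1 was high. Ifit3 (34583531 to 34588731) did not pass 0.189 FPKM in the labelled cKO libraries or 1.43 FPKM in WT, although its promoter window holds ISRE cores like that of Ifit1. Ifit3b, a near-identical copy that could take reads from Ifit3, had at most 10 counts in any library, and the Ifit1-like gene Ifit1bl1 had 400 counts in labelled cKO 3 and at most 4 elsewhere. Coordinates are as deposited and match GRCm38.

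The oligoadenylate synthetases, which make the messenger that activates RNase L, behaved in the same scattered way. Oas1a (chromosome 5, 120896256 to 120907521) had 0.0883, 5.54 and 0.0258 FPKM in the labelled cKO libraries and 0.772, 93.7 and 0.542 FPKM in WT. Its paralogs Oas1b and Oas1c were also highest in WT 2, at 15.6 and 44.5 FPKM, and reads may be divided among these similar genes. Oas2 was instead highest in labelled cKO 2, with 0.0654, 27.2 and 0.0109 FPKM in the labelled cKO libraries against 4.11, 0.0233 and 0.752 FPKM in WT. Oasl2 had 0.0715, 9.58 and 6.04 FPKM in the labelled cKO libraries and 0.134, 11.7 and 0.502 FPKM in WT. Oas3 stayed at or below 0.0917 FPKM, and Oasl1, which in mice restrains Irf7 translation, at or below 0.658 FPKM in all libraries. Thus Oas1a and Oas2, which lie in a gene cluster on chromosome 5, were each high in a library where the other was low or far lower.

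Ifitm1 was the most abundant of the 33 genes. It encodes a membrane protein that blocks virus entry (chromosome 7, 140967221 to 140969825) and had 919, 2196 and 3407 FPKM in labelled cKO 1, 2 and 3, against 7.06, 1518 and 28.5 FPKM in WT 1, 2 and 3. Levels were thus high in all 3 labelled cKO libraries and in WT 2, and the genotypes overlapped because WT 2 exceeded labelled cKO 1. The means were 2174 ± 1244 FPKM in the labelled cKO libraries and 517.8 ± 866.1 FPKM in WT (SD, n = 3 each). On the log2 scale the difference was 2.55 (standard error 1.75, edgeR adjusted p = 0.734), with 7.33 without WT 2 and 0.73 without WT 1 and WT 3. Ifitm3, its close relative, had 8.79, 33.7 and 35.7 FPKM in the labelled cKO libraries and 0, 45.2 and 0 FPKM in WT. Ifitm2, which is not among the 33, had 760, 1078 and 1187 FPKM in the labelled cKO libraries against 5.99, 1175 and 34.8 FPKM in WT. These 3 Ifitm genes were therefore low together in WT 1 and WT 3 and highest in the same 4 libraries. Ifitm6 was not, with 1.24, 113 and 0.113 FPKM in the labelled cKO libraries and 0.798, 0.305 and 2.74 FPKM in WT. Over the 13 HSC markers the mean of log2(FPKM + 1) was 2.37, 3.04 and 2.81 in the labelled cKO libraries and 1.18, 3.36 and 1.01 in WT, although single markers such as Ly6a, highest in WT 1, and Procr, high in labelled cKO 2 alone, did not follow it. The part of HSC content or depth in the Ifitm levels was not tested.

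The other effectors did not follow the Ifitm genes. Bst2, the virion tether called tetherin, had 314, 0.542 and 0.868 FPKM in the labelled cKO libraries and 5.19, 73.3 and 12.5 FPKM in WT. Rsad2, whose product viperin makes an antiviral nucleotide, had 3.81, 37.8 and 0.0447 FPKM in the labelled cKO libraries and 0.220, 27.8 and 1.52 FPKM in WT. Bst2 was therefore highest in labelled cKO 1 and Rsad2 in labelled cKO 2, with WT 2 second for both. Isg20, an exonuclease, was the only one of the 21 genes above 10 FPKM to peak in WT 1, with 1.26, 62.4 and 66.5 FPKM in the labelled cKO libraries and 793, 3.38 and 9.77 FPKM in WT. WT 1 thus gave 31731 of the Isg20 counts and the order of the genotypes hung on it. Mx1 and Mx2, antiviral GTPase genes of which many inbred mouse strains carry defective alleles, stayed at or below 0.0888 and 0.0671 FPKM and at 8 and 5 counts.

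**Figure D3:**
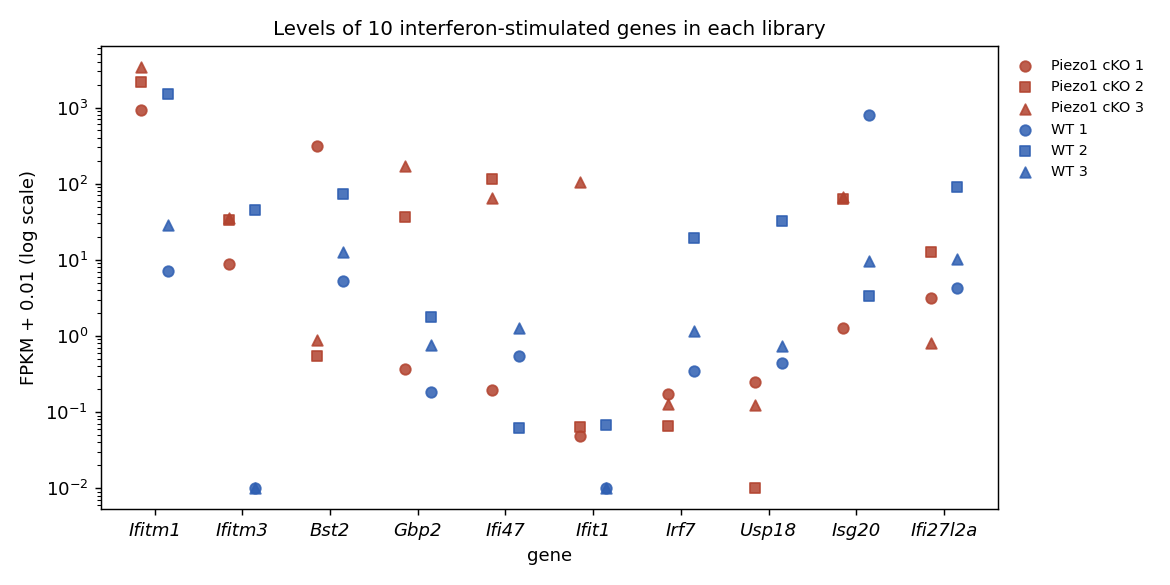
FPKM plus 0.01, on a log axis, of 10 of the genes in each library, with labelled Piezo1 cKO (red) left of WT (blue) and a symbol for each replicate number. Gbp2 and Ifi47 are high in labelled cKO 2 and 3 only, Irf7 and Usp18 in WT 2, Ifit1 in labelled cKO 3 and Isg20 most of all in WT 1.

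Interferon-inducible GTPases, which attack the vacuoles of intracellular pathogens and respond mainly to interferon gamma, included the 2 genes with the largest log2 fold changes of the 15 tested, Ifi47 and Gbp2. Gbp2 (chromosome 3, 142620602 to 142638008) had 0.362, 36.3 and 169 FPKM in labelled cKO 1, 2 and 3, against 0.173, 1.78 and 0.759 FPKM in WT. Ifi47 (chromosome 11, 49076587 to 49096974) had 0.183, 114 and 64.8 FPKM in the labelled cKO libraries and 0.535, 0.0519 and 1.26 FPKM in WT. Both were high in labelled cKO 2 and 3 and low in labelled cKO 1, which lay inside the WT range. Means were 68.6 ± 88.9 FPKM for Gbp2 and 59.6 ± 57.1 FPKM for Ifi47 in the labelled cKO libraries, against 0.905 ± 0.815 FPKM and 0.615 ± 0.607 FPKM in WT (SD, n = 3 each). The log2 fold changes were 6.60 with a standard error of 3.10 for Gbp2 and 6.93 with 3.14 for Ifi47 (edgeR, adjusted p = 0.692 for each). Only for these 2 genes was the unadjusted p under 0.05, at 0.0330 for Gbp2 and 0.0276 for Ifi47 (edgeR). Ifi47 reached 1 FPKM in just the 3 libraries that testing required, and in WT 3 it did so on 18 counts. Irgm1, which is known to protect HSCs from loss under interferon in mice, had 0.0938, 9.62 and 0.0310 FPKM in the labelled cKO libraries and 0.215, 0.0438 and 0.237 FPKM in WT. Igtp did not pass 0.104 FPKM in the labelled cKO libraries or 2.12 FPKM in WT, on at most 28 counts.

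The other 6 genes each reached 10 FPKM somewhere. Rtp4, a chaperone of membrane receptors, had 0.711, 4.66 and 86.2 FPKM in the labelled cKO libraries and 0.208, 82.3 and 1.46 FPKM in WT. Trim30a, a brake on Toll-like receptor signalling, had 2.60, 0 and 59.0 FPKM in the labelled cKO libraries and 0.442, 63.5 and 1.15 FPKM in WT. These 2 genes were highest in labelled cKO 3 and WT 2, where their levels were alike. Parp14, an ADP-ribosyltransferase, was high in WT 2 alone, at 11.4 FPKM, with at most 0.144 FPKM in the labelled cKO libraries and 0.187 and 0.847 FPKM in WT 1 and 3. Xaf1, which antagonises the apoptosis inhibitor XIAP, had 0.0214, 32.9 and 2.45 FPKM in the labelled cKO libraries and at most 0.461 FPKM in WT. Ifi27l2a was spread more evenly, with 3.18, 12.8 and 0.801 FPKM in the labelled cKO libraries and 4.26, 89.8 and 10.1 FPKM in WT. Ifi44 was high in labelled cKO 1, at 51.8 FPKM, with 0.00732 and 0 FPKM in labelled cKO 2 and 3 and 27.4, 9.68 and 0.269 FPKM in WT.

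No interferon-stimulated gene passed the test between the labelled genotypes. Genes entered the test if they reached 1 FPKM in at least 3 of the 6 libraries, which kept 15 of the 33 and 4173 of all genes. edgeR's quasi-likelihood test called 0 of the 15 at an adjusted p of 0.05, against 0 of the 4173 genes (0% called), and 2 of the 15 had an unadjusted p under 0.05, where 6.88% of all genes did (3.4% higher and 3.47% lower in the labelled cKO). limma on log2(FPKM + 1) called 0 of the 15. DESeq2 gave an adjusted p for 9 of the 15 and called 1, Gbp2, at a log2 fold change of 5.30 with a standard error of 1.50 (adjusted p = 0.0131), in a test that called 8.71% of all genes with an adjusted p. Of the 15 genes, 13 had a positive and 2 a negative log2 fold change in edgeR, with a median of 0.84. Of all 4173 genes 67.9% were positive, with a median of 1.10, and 6 of the 15 lay above it. Which median was higher depended on the libraries: without labelled cKO 1, 2 or 3 the median of the 15 was 0.42, 0.98 or 1.07, against 0.10, 0.67 or 0.74 for all genes. With WT 1 and WT 3 both left out, so that WT 2 alone stood for the wild type and was assumed to vary like the labelled cKO libraries, the median of the 15 was -0.58 and that of all genes 0.41. It was 4.51 without WT 2, where the median of all genes was 2.93. The 2 negative genes were Isg20, at -2.64 with a standard error of 2.34, and Ifi27l2a, at -2.09 with 1.80 (edgeR, adjusted p = 0.747 for each). The direction of Isg20 turned without WT 1, to 3.21.

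**Figure D4:**
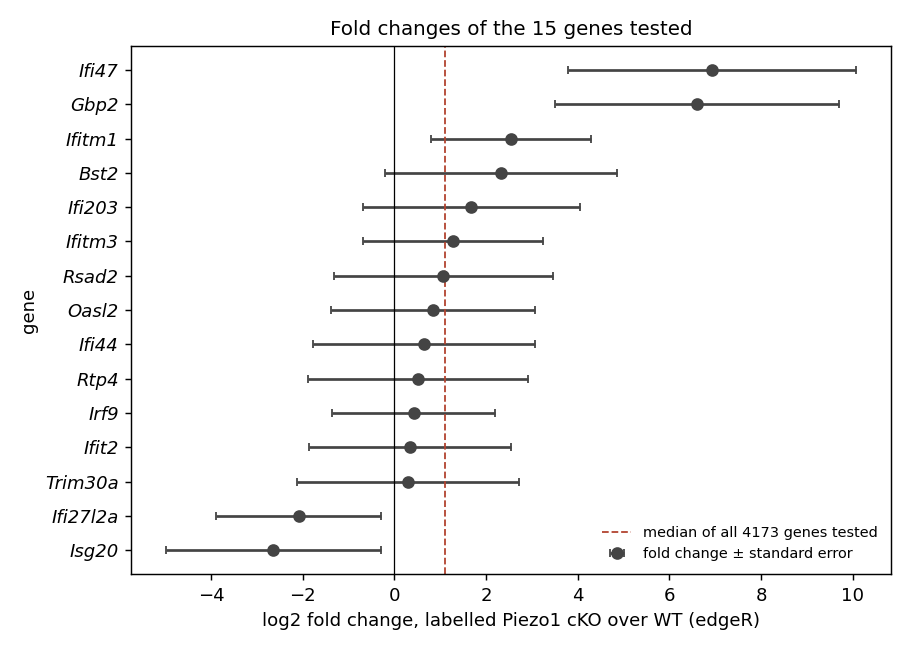
Log2 fold change with its standard error (edgeR, labelled Piezo1 cKO over WT) of the 15 genes tested, with the median of all 4173 genes as a dashed line. Ifi47 and Gbp2 lie farthest right, at 6.93 and 6.60, the bars of most other genes cross both 0 and the dashed line, and no gene passed the adjusted threshold.

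The levels of 3 genes did not overlap between the labelled genotypes, all lower in the labelled cKO: Irf7, Parp14 and Usp18. They make up 9.09% of the 33, where 8.6% of all genes of the table were lower without overlap, 1.87% were higher and 10.5% were either. None of the 3 entered the test, and all 15 genes that did overlapped, where 11.6% of the 4173 did not (6.37% higher and 5.18% lower). In each, the WT mean came mostly from WT 2, which gave 91.4% of the summed FPKM of Irf7, 90.3% of Parp14 and 95.6% of Usp18. In WT 1 and WT 3 these genes stood on 12 to 44 counts, against 0 to 51 in the labelled cKO libraries, so the separation outside WT 2 rests on low counts in libraries of lower total.

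Upstream of these genes, little can be said of the interferons themselves. Ifng was the only interferon gene analysed of 21 listed, with 4 counts in labelled cKO 1 and 0 in the other 5 libraries. All 6 receptor genes were in the table. Ifnar2, a chain of the type I receptor, had 0.207, 53.0 and 49.9 FPKM in the labelled cKO libraries and 43.8, 0.101 and 2.38 FPKM in WT. Ifngr1, a chain of the gamma receptor, was high in WT 2 alone, at 37.5 FPKM, and at most 0.389 FPKM in the labelled cKO libraries. Ifnlr1, of the type III receptor, was high in labelled cKO 2 alone, at 36.4 FPKM, and Il10rb did not pass 0.899 FPKM in any library. None of the lists of signalling, sensing or response genes held a gene that passed (edgeR, 0 of 1 receptor gene tested, 0 of 5 JAK, STAT and IRF genes, 0 of 5 negative regulators, 0 of 5 sensing genes and 0 of 22 other interferon-stimulated genes).

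The signalling genes were scattered over the libraries like their targets. Irf1, a factor induced by interferon gamma, was high in labelled cKO 2, with 0.199, 84.5 and 2.95 FPKM in the labelled cKO libraries and 0.582, 0.0720 and 2.28 FPKM in WT. Jak1 had 7.04, 26.7 and 8.13 FPKM in the labelled cKO libraries and 0.862, 11.5 and 2.09 FPKM in WT. Irf2, which competes with Irf1, had 1.40, 18.5 and 13.2 FPKM in the labelled cKO libraries and 0.226, 1.50 and 0.416 FPKM in WT. The log2 fold changes of Irf1, Jak1 and Irf2 were 5.36, 2.04 and 4.37, with standard errors of 2.91, 2.51 and 2.70 (edgeR, adjusted p = 0.692, 0.780 and 0.730).

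Among the brakes on the pathway, the phosphatase gene Ptpn6 was highest in WT 1, with 310, 19.9 and 36.6 FPKM in the labelled cKO libraries and 566, 34.3 and 2.00 FPKM in WT. Socs3 also peaked in WT 1, at 118 FPKM, with 2.11 and 1.53 FPKM in WT 2 and 3. It had 0.285, 7.67 and 4.32 FPKM in the labelled cKO libraries. Ptpn2 reached 180 FPKM in labelled cKO 1 and 66.8 FPKM in WT 2, and Ptpn11 62.1 FPKM in labelled cKO 1. Neither was above 1.53 FPKM in any other library. In WT 3, the cytosolic RNA sensor genes Dhx58 and Ddx58 stood at 21.2 and 54.5 FPKM on 380 and 2103 counts. Dhx58 had 0.509, 0.885 and 41.9 FPKM in the labelled cKO libraries and 23.4 and 0.564 FPKM in WT 1 and 2. Ddx58 had at most 0.867 FPKM in the labelled cKO libraries. Tbk1, the kinase that activates IRF3, had 105, 41.9 and 44.5 FPKM in the labelled cKO libraries and 0.566, 25.7 and 0 FPKM in WT, and Samhd1, which depletes nucleotides, 10.8, 12.0 and 15.2 FPKM against 0.707, 12.2 and 1.54 FPKM. Both were lowest in WT 1 and WT 3, as Ifitm1 was.

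A further list of 80 interferon-stimulated genes, of which 73 were in the table, was broadest in labelled cKO 3 and WT 2. In the list, 14, 14 and 25 genes reached 10 FPKM in labelled cKO 1, 2 and 3, against 5, 24 and 6 in WT 1, 2 and 3. Of the 22 tested, 17 had a positive and 5 a negative log2 fold change, with a median of 0.90, below the 1.10 of all genes. B2m, the light chain of MHC class I, was the most abundant, with 2251, 4554 and 5926 FPKM in the labelled cKO libraries and 3306, 6817 and 228 FPKM in WT. B2m was thus high in WT 1, unlike Ifitm1 and Ifitm2, and low in WT 3 only. Tgtp2, a GTPase of the Ifi47 family, had 56.2, 358 and 130 FPKM in the labelled cKO libraries and 0.522, 264 and 1.39 FPKM in WT, and Ly6a, also the HSC marker Sca-1, had 13.9, 143 and 208 FPKM against 601, 155 and 35.5 FPKM.

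Markers of other marrow cells that respond to interferon were unevenly present. Of 7 plasmacytoid dendritic cell markers 5 were in the table, and their summed level was 0.371 to 2.38 FPKM in the labelled cKO libraries and 0.929 to 10.7 FPKM in WT. Siglech, which defines these cells, had 4 counts in WT 2 and 0 elsewhere. Neutrophil markers, 9 of 9 in the table, summed to 823, 37511 and 3886 FPKM in the labelled cKO libraries and 29421, 272 and 583 FPKM in WT, highest in labelled cKO 2 and WT 1. Monocyte and macrophage markers, 10 of 11, summed to 417 to 1451 FPKM in the labelled cKO libraries and 48.6 to 559 FPKM in WT, nearly all of it Lyz2 and, in labelled cKO libraries, Ms4a6c. Both sums were higher in labelled cKO 2 than in labelled cKO 1. Within the monocyte list Ms4a6c went the other way, with 388 FPKM in labelled cKO 1 and 97.2 FPKM in labelled cKO 2. Gbp2 and Ifi47 had 0.362 and 0.183 FPKM in labelled cKO 1 and 36.3 and 114 FPKM in labelled cKO 2. In WT 1 they had 0.173 and 0.535 FPKM. The part of neutrophils or monocytes in the levels of Gbp2 and Ifi47 was not tested. T and NK markers, 9 of 9, summed to 80.8 to 184 FPKM in the labelled cKO libraries and 3.26 to 861 FPKM in WT, where Nkg7 gave 861 FPKM in WT 2. B lineage markers, 6 of 7, summed to 0.759 to 3.00 FPKM in the labelled cKO libraries and 6.44 to 86.3 FPKM in WT, with Cd79b at 85.8 FPKM in WT 2, the library with the highest Irf7 and Usp18. Erythroid markers, 9 of 9, summed to 2052 to 3015 FPKM in the labelled cKO libraries and 10148 to 22802 FPKM in WT, without overlap, and stromal and endothelial markers, 8 of 8, to 0.682 to 21.0 FPKM and 4.73 to 13.6 FPKM. The part of such cells in the levels of the interferon-stimulated genes was not tested.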

How the data were processed

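RNA from 100 sorted HSCs per library was copied with an oligo(dT) primer, amplified and sequenced in pairs, per the labels' protocols, which name no molecular identifiers. The submitters' processing notes list the build GRCm39 and, with no role or order, StringTie 2.1.6, HISAT2 2.2.1, cutadapt 1.9, edgeR and DESeq2. However, 88.1% of 19953 matched genes, and 31 of the 33 members, have the start and end of GENCODE M21 on GRCm38, so coordinates are read as GRCm38. The exceptions are Isg20 and Ifih1. For each gene, the authors' deposited table gives unscaled counts. The same deposited table gives FPKM, corrected by the authors for length and depth. Between 40.2% and 48.8% of counts from 1 to 40 were multiples of 4, so low counts are less precise than they look. No source names a strand-marking step, so overlapping genes may share reads.

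Gene tests ran over the whole table: edgeR 4.0.16 (quasi-likelihood, TMM, R 4.3.3) on the deposited counts, fitted on genotype alone, with p-values adjusted by Benjamini-Hochberg and a threshold of 0.05. A standard error is the size of the log2 change divided by the root of F. Genes needed 1 FPKM in at least 3 libraries. DESeq2 1.42.0 (local dispersion fit) and limma 3.58.1 on log2(FPKM + 1) were alternatives, among 15 tried. The tests were run on simulated counts with 200 changed genes. They were run at a spread far below that of these libraries and at another near it. Recovery was required only at the lower spread. Recovery at the other spread is not given here, so what edgeR would recover in these libraries is not stated. Every member is named, and of each pathway list the 4 genes with the highest mean FPKM, except 1 that is not reported here. Oas1b, Oas1c, Ifit3b, Ifit1bl1, Mndal, Ifitm6 and marker genes named singly were chosen after their values were seen. The members and lists were chosen with earlier results of these data known. Figures were drawn with matplotlib 3.10.9.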

Additional observations from a re-analysis of the deposited data

How the results depend on the processing

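edgeR called 0 of all genes and 0 of the 15 members also with median-of-ratios or total count scaling, the replicate block and each left-out library. Over all genes it called 163 with no filter, 2 at a mean FPKM of at least 5 and 1 without WT 1 and WT 3. DESeq2 called 298, with no adjusted p for 752 genes and 6 of the 15 members, and 1 member, Gbp2. The replicate numbers were not treated as pairs: deviations of same-numbered libraries correlated at 0.134, 0.126 and -0.123, and 2 of 6 libraries correlated best with their own number. With the replicate block, 84 genes had an unadjusted p under 0.05, against 287 without it.

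The median of the tested members ranged from 0.32 to 4.51 without 1 library and was -0.58 without WT 1 and WT 3. It lay above the median of all genes with no filter, at 1.52 against 0.17, and with the replicate block, at 1.57 against 0.77. Piezo1 ranged from -1.65 to 2.06 without 1 library and turned to -0.16 with median-of-ratios scaling, DESeq2 and the replicate block, -0.32 with limma on log2(FPKM + 0.1) and -0.084 without WT 1 and WT 3. Of the 15 members, 4 (Gbp2, Ifi47, Ifitm1 and Ifi203) kept a positive sign in all alternatives run. For the other 11, the causes of the reversals were not tested. Without 1 library, Bst2 ranged from -6.08 to 4.00, Ifi27l2a from -3.60 to 0.056, Ifi44 from -12.6 to 2.36, Ifit2 from -7.69 to 3.99, Irf9 from -4.34 to 1.70, Isg20 from -3.53 to 3.21, Oasl2 from -0.053 to 4.37, Rsad2 from -1.79 to 4.51, Rtp4 from -2.80 to 5.46 and Trim30a from -3.50 to 4.90. Without WT 1 and WT 3, Ifit2 was -1.54, Ifitm3 -0.58, Irf9 -1.07, Isg20 3.84, Oasl2 -0.99, Rsad2 -0.77, Rtp4 -1.30 and Trim30a -1.49. With the replicate block, Bst2 was -2.94, Ifi44 -7.15, Ifit2 -2.14, Irf9 -1.53 and Isg20 2.27. With limma on log2(FPKM + 1), Bst2 was -0.92, Ifi44 -0.95, Ifit2 -0.45 and Irf9 -0.33, and with log2(FPKM + 0.1) they were -1.55, -2.49, -1.47 and -1.24, and Trim30a -0.48. Median-of-ratios scaling gave Ifit2 -0.054 and Irf9 -0.71, total count scaling Ifit2 -0.28, Irf9 -0.26 and Trim30a -0.10, and DESeq2 Ifit2 -0.053 and Irf9 -0.71.

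On the log2(FPKM + 0.1) scale the mean level of the 33 members was -0.56, 1.10 and 0.22 in labelled cKO 1, 2 and 3 against -0.70, 1.46 and -0.26 in WT 1, 2 and 3. Over the tested members alone, on log2(FPKM + 1), it was 2.83, 4.12 and 3.82 in the labelled cKO libraries and 1.71, 4.63 and 1.68 in WT. The order of labelled cKO 2 and WT 2 above the other libraries held in both. At 10 FPKM, the members detected were 4, 11 and 9 in labelled cKO 1, 2 and 3, against 2, 14 and 3 in WT 1, 2 and 3. With at least 100 counts, a threshold chosen after seeing the data, they were 7, 18 and 12 in the labelled cKO libraries and 5, 19 and 2 in WT. Depth limits WT 3 most, where values near 1 FPKM stood on few counts.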
